A study of Mus musculus with 20 samples.

Results

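Lipopolysaccharide (LPS) co-receptor and Toll-like receptor (TLR) adaptor genes form a set of 10: Cd14, Ly96, Lbp, Myd88, Tirap, Irak1, Irak4, Traf6, Ticam1 and Unc93b1. They were taken by symbol from a table of 23402 rows, with earlier results of these data known, and all 10 had a row. The samples were 20 RNA libraries from tumours grown under the skin with MC38 cells, a line of mouse colon adenocarcinoma. Of these, 10 were from tumours treated around the tumour with ATBx (P.T.ATBx), and 10 were vehicle controls (Control). ATBx is a usual short form for antibiotics. The labels give no agent, dose, schedule, mouse strain, age or genotype, and they do not tie a library to an animal, so the spread behind each p-value is that between libraries and may be partly technical. The title of the study names tumour microbial burden and interferon signalling, so the comparison bears on how RNA of the machinery that reads bacterial products differed after local ATBx.

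LPS is a component of the outer membrane of Gram-negative bacteria. LBP, a secreted protein, carries it to CD14, which hands it to MD-2 (the product of Ly96) bound to TLR4. Signalling then runs through adaptors with a TIR domain: TIRAP brings MYD88 to the receptor, MYD88 assembles the kinases IRAK4 and IRAK1, and these engage the ubiquitin ligase TRAF6 on the way to NF-kB. TICAM1 (TRIF) serves TLR3 and, from endosomes, TLR4, and leads to interferon genes. UNC93B1 escorts nucleic acid-sensing TLRs from the endoplasmic reticulum to endosomes. MYD88 and the IRAK kinases also serve receptors of the IL-1 and IL-18 family.

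Values are FPKM, which corrects for the length of a gene and for the mapped fragments of its library, so levels can be set beside each other between genes. The upper quartile of FPKM ran only from 22.3 to 23.7 over the libraries, while the FPKM sums differed 1.35-fold. Whether a scaling between libraries was also applied is not given. Depth as read totals is unknown. The spacing of low values gave a relative depth from 0.808 to 1.285, and the RNase P and RNase MRP RNAs Rpph1 and Rmrp made up between 7.75% and 20.5% of the FPKM sum. Control 1, Control 3, P.T.ATBx 1 and P.T.ATBx 4 had the 4 largest sums. The tumours are bulk tissue. Leukocyte RNA was plain in every library, with Ptprc, the pan-leukocyte phosphatase CD45, at 28.2 to 59.2 FPKM in P.T.ATBx and 32.0 to 56.8 in Control. Of the colon epithelium genes, Cdx2 was listed at 0 in all 20 libraries and Vil1 was under the filter. The epithelial keratin gene Krt19 reached 19.7 FPKM in P.T.ATBx and 64.6 in Control, with medians of 7.49 and 15.2 in these groups. The summed FPKM of the 7 epithelial markers ran from 11.9 to 52.9 in P.T.ATBx and from 4.17 to 178 in Control. Control 3 had the highest of these sums and the highest sum of 4 adipocyte markers, at 260 FPKM.

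None of the 10 genes passed the test between the groups. All had a mean of at least 0.5 FPKM and entered the fit, in which limma compared log2(FPKM + 1) over 12788 rows with Benjamini-Hochberg adjustment. At an adjusted p under 0.05 the count was 0 of 10, 0 higher and 0 lower, where 0.845% of all tested rows were called, 0.461% higher and 0.383% lower. At an unadjusted p under 0.05 the count was 1 of 10, Lbp, where 13.6% of all rows were. In 0 of the 10 did the groups lie fully apart, against 0.133% of all rows. The log2 fold change, P.T.ATBx over Control, was positive in 4 and negative in 6, with a median of −0.019 beside 0.0027 over all rows. Of all 12788 rows, 6585 were positive and 6203 negative. The median absolute value was 0.043, beside 0.055 over all rows.

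**Figure D1:**
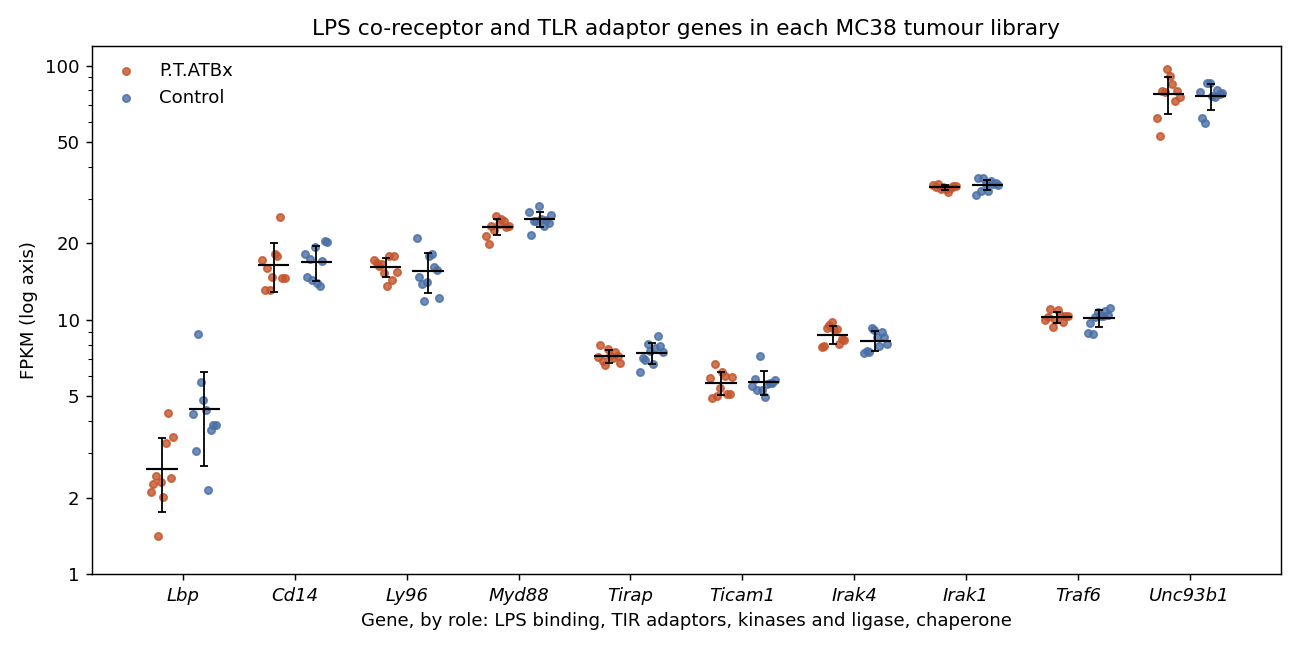
FPKM on a log axis for the 10 genes, ordered by role. Each point is a library, P.T.ATBx in orange and Control in blue, and the bar and whiskers give mean and SD (n = 10 each). Lbp has the lowest level and the widest spread, with a mean of 2.60 in P.T.ATBx and 4.47 in Control, and Irak1 the narrowest.

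Taken pair by pair, most neighbours in the order of mean level kept that order in nearly every library. Unc93b1 was highest at 76.5 ± 10.7 FPKM (SD, n = 20), followed by Irak1 at 33.6 ± 1.32 and Myd88 at 24.1 ± 1.84. Cd14 (16.7 ± 3.10) and Ly96 (15.8 ± 2.19) could not be ordered, since Cd14 exceeded Ly96 in 9 of the 20 libraries. Traf6 (10.2 ± 0.646), Irak4 (8.52 ± 0.751), Tirap (7.32 ± 0.571), Ticam1 (5.67 ± 0.586) and Lbp (3.53 ± 1.67) followed. Every other gene in this order exceeded the next in 19 or 20 of the 20 libraries. The exceptions fell in different libraries. Myd88 was under Cd14 in P.T.ATBx 8 and Traf6 under Irak4 in P.T.ATBx 4. Irak4 was under Tirap in P.T.ATBx 2 and Ticam1 under Lbp in Control 3. The genes also differed in how much they varied. Between the lowest and the highest of the 20 libraries Irak1 spanned 1.16-fold and Traf6 1.26-fold, while Unc93b1 spanned 1.83-fold, Cd14 1.95-fold and Lbp 6.19-fold.

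Among the genes that bind and transfer LPS, Lbp had the largest difference of the 10. Lbp (chromosome 2, 158306493 to 158332852, GRCm38) ran from 1.42 to 4.31 FPKM in P.T.ATBx, with a median of 2.35, and from 2.15 to 8.77 in Control, with a median of 4.08. The groups overlapped. Of the P.T.ATBx libraries, 9 of 10 were under the median of Control and 3 were under the lowest Control library, and 4 Control libraries lay above the highest P.T.ATBx library. The means were 2.60 ± 0.843 FPKM in P.T.ATBx and 4.47 ± 1.79 in Control (SD, n = 10 each), a ratio of 0.582. The log2 fold change was −0.58 (SE 0.16, 95% interval −0.91 to −0.24), with p = 0.00175 and adjusted p = 0.0876 (limma), so it did not pass over all genes. Leaving out Control 7, the lowest Control library, brought it past the threshold (log2 fold change −0.66, adjusted p = 0.0392, limma). Over all 30 alternative fits it ran from −0.73 to −0.37, with an unadjusted p of at most 0.0190 and an adjusted p of 0.0392 to 0.267.

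LBP is best known as a liver acute-phase protein, and in these tumours its RNA varied together with fibroblast genes. Over the 20 libraries, after the group mean was taken off, Lbp and the mean of 5 fibroblast markers (Col1a1, Col1a2, Dcn, Pdgfra and Lum) had r = 0.769 and rho = 0.630 (permutation within groups, adjusted p = 0.0039 for r and 0.0456 for rho over 120 relations). The value of r was 0.721 within P.T.ATBx and 0.795 within Control, 0.586 without the 2 libraries farthest from the median score, and 0.636 without Control 3, which was highest in both measures. Of the fibroblast markers 5 of 5 had a negative log2 fold change, and 1, the matrix proteoglycan gene Dcn, fell (543 ± 39.5 FPKM in P.T.ATBx and 672 ± 40.1 in Control, SD, n = 10 each, log2 fold change −0.31, adjusted p = 0.00125, limma). The collagen genes differed less. P.T.ATBx libraries under the Control median numbered 10 for Dcn, 10 for Pdgfra, 9 for Lum, 6 for Col1a1 and 3 for Col1a2. The median of Col1a2 was higher in P.T.ATBx (187 FPKM) than in Control (177 FPKM). The summed FPKM of the 5, of which Dcn is a large part, ran from 889 to 1108 in P.T.ATBx and from 1069 to 1507 in Control. Whether fibroblast content has a part in the difference of Lbp was not tested. In bulk tissue, fewer cells of a type and less RNA per cell cannot be told apart.

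The 3 genes most like Lbp across the 20 libraries, by Pearson's r of deviations from the group means, were Pi16 (r = 0.842), Cadm3 (r = 0.838) and Col1a2 (r = 0.806). They were picked as the highest of all tested rows, so r describes them and carries no test. Pi16, a marker of a fibroblast population found in many tissues, had 6.25 ± 2.54 FPKM in P.T.ATBx and 13.1 ± 6.19 in Control (SD, n = 10 each, log2 fold change −0.92, p = 0.00157, adjusted p = 0.0853, limma). Cadm3, an adhesion molecule gene, was low, at 0.408 ± 0.168 FPKM in P.T.ATBx and 0.696 ± 0.377 in Control (log2 fold change −0.25, adjusted p = 0.264, limma). Col1a2, a collagen I chain gene, had 192 ± 42.1 and 203 ± 74.0 FPKM in these groups (log2 fold change −0.05, adjusted p = 0.932, limma).

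**Figure D2:**
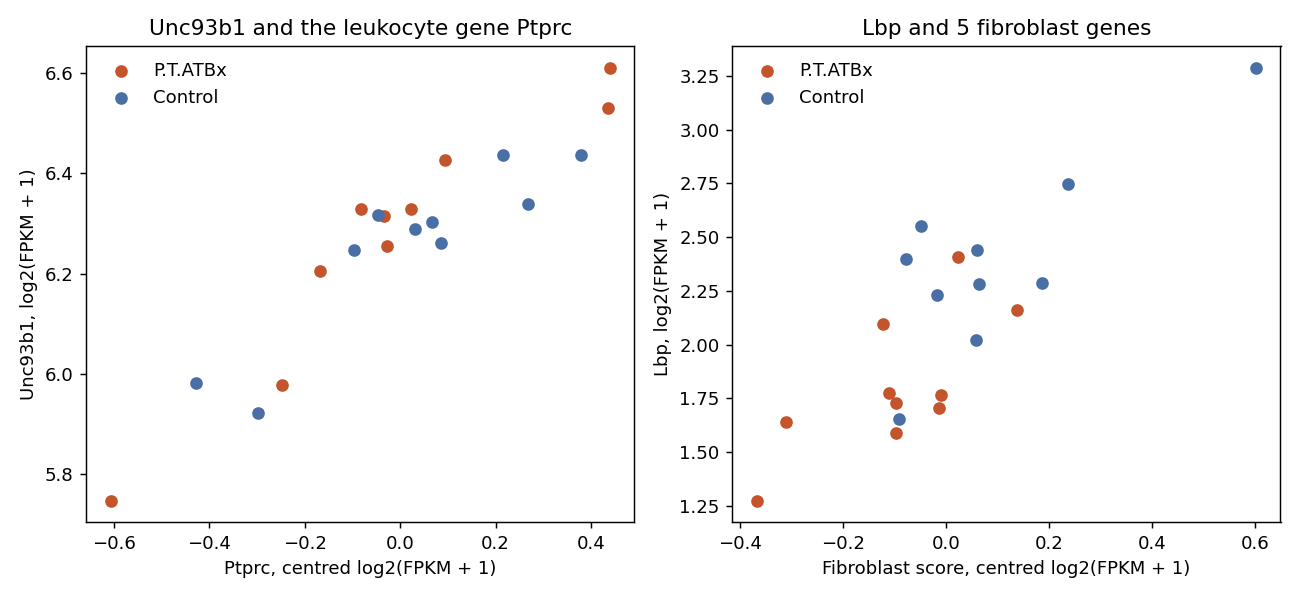
Left, Unc93b1 against the leukocyte gene Ptprc. Right, Lbp against the mean of 5 fibroblast markers. Axes are log2(FPKM + 1), centred per gene on the x axis, and each point is a library, P.T.ATBx in orange and Control in blue. Unc93b1 follows Ptprc in both groups (r = 0.937 after the group means are taken off). Lbp follows the fibroblast score (r = 0.769), with Control 3 at the top right.

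Cd14, which presents LPS to MD-2 and TLR4 on myeloid cells, ran from 13.1 to 25.5 FPKM in P.T.ATBx (median 15.3) and from 13.6 to 20.4 in Control (median 17.2). The groups overlapped over most of their range, and the highest value of all was P.T.ATBx 8. The means were 16.5 ± 3.63 FPKM in P.T.ATBx and 16.9 ± 2.65 in Control (SD, n = 10 each), with a log2 fold change of −0.05 (95% interval −0.26 to 0.16, adjusted p = 0.879, limma). Leaving out P.T.ATBx 8 gave −0.12 and leaving out P.T.ATBx 4 gave −0.016, neither past the threshold. Cd14 lies on chromosome 18.

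Although Cd14 is a myeloid gene, it did not pass with the macrophage score (r = 0.310, rho = 0.424, adjusted p = 0.573 and 0.377) or with Ptprc (r = 0.175, rho = 0.238, adjusted p = 0.798 and 0.700). With the macrophage score r was 0.098 within P.T.ATBx and 0.577 within Control. Leaving out P.T.ATBx 8, the library highest in Cd14, moved r to 0.524 with the macrophage score and to 0.329 with Ptprc. Its relation to the neutrophil score, the mean of S100a8, S100a9, Csf3r and Retnlg, passed by rank only (r = 0.570, rho = 0.684, permutation within groups, adjusted p = 0.0629 for r and 0.0329 for rho). That r was 0.325 within P.T.ATBx, 0.819 within Control, 0.750 without P.T.ATBx 8 and 0.460 without the 2 libraries farthest from the median score. The 3 genes most like Cd14 were the phospholipase gene Ddhd2 (r = 0.760), the macrophage elastase gene Mmp12 (r = 0.727) and Alas1, which encodes the first enzyme of haem synthesis (r = 0.696).

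Ly96, the gene of the LPS-binding subunit MD-2 (chromosome 1, 16688456 to 16709605), ran from 13.5 to 17.8 FPKM in P.T.ATBx (median 16.4) and from 11.9 to 21.0 in Control (median 15.2). All P.T.ATBx libraries lay inside the Control range, with 3 Control libraries above and 2 below them. The log2 fold change was 0.06 (95% interval −0.11 to 0.23, adjusted p = 0.797, limma). Ly96 passed with none of the 10 marker scores. By r its largest relation was to the Rpph1 and Rmrp share (r = 0.510, rho = 0.447, permutation within groups, adjusted p = 0.249 and 0.352). That r was 0.297 without Control 1 and 0.244 without the 2 libraries farthest from the median share. By rho it was to the relative depth (r = −0.479, rho = −0.519, permutation within groups, adjusted p = 0.386 and 0.262). With relative depth r was 0.075 within P.T.ATBx and −0.621 within Control. The genes most like it were the small nucleolar RNA gene Snora47 (r = 0.775), the tetraspanin gene Cd81 (r = 0.763) and Rdm1 (r = 0.761).

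RNA of Cd14, Ly96 and their receptor Tlr4 stood at nearly the same FPKM. Within a library the ratio of Cd14 to Tlr4 had a median of 0.962 in P.T.ATBx (0.768 to 1.46) and 0.995 in Control (0.785 to 1.15). For Ly96 over Tlr4 the median was 0.982 in P.T.ATBx (0.801 to 1.16) and 0.898 in Control (0.684 to 1.196). The ratio of Lbp to Cd14 was lower, with a median of 0.160 in P.T.ATBx (0.108 to 0.238) and 0.226 in Control (0.158 to 0.503). Across libraries, Cd14 and Ly96 had no relation past the threshold (r = −0.254, rho = −0.338, permutation within groups, adjusted p = 0.488 and 0.502 over 45 pairs of the 10 genes).

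Of the adaptors with a TIR domain, Myd88 (chromosome 9, 119335934 to 119340018) had the smallest p. It ran from 19.97 to 25.6 FPKM in P.T.ATBx (median 23.5) and from 21.6 to 28.0 in Control (median 24.6). Both ranges overlapped, and in P.T.ATBx 8 of 10 libraries were under the median of Control. The means were 23.3 ± 1.67 FPKM in P.T.ATBx and 24.8 ± 1.74 in Control (SD, n = 10 each), a ratio of 0.938. The log2 fold change was −0.09 (95% interval −0.18 to 0.0038, p = 0.0593, adjusted p = 0.392, limma), and it was negative in all 30 alternative fits, with 0 calls.

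Tirap (chromosome 9, 35184391 to 35200291), the adaptor gene that links MYD88 to TLR2 and TLR4, ran from 6.66 to 7.98 FPKM in P.T.ATBx (median 7.17) and from 6.23 to 8.63 in Control (median 7.53). The P.T.ATBx libraries lay inside the Control range. Its log2 fold change was −0.04 (95% interval −0.13 to 0.06, adjusted p = 0.782, limma). Tirap overlaps the long noncoding RNA gene Gm39318, which has no row in the table, and whether counting used strand is not given in the sources used here. Ticam1 (chromosome 17, 56269462 to 56276767), the TRIF gene, ran from 4.95 to 6.71 FPKM in P.T.ATBx (median 5.67) and from 4.97 to 7.22 in Control (median 5.64). Again the groups overlapped, with 5 of 10 P.T.ATBx libraries on each side of the Control median, and Control 4 was the highest. The log2 fold change was −0.0083 (95% interval −0.13 to 0.11, adjusted p = 0.971, limma).

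IRAK4 is the first kinase to join MYD88 and IRAK1 its substrate. Irak4 (chromosome 15, 94543613 to 94568317) ran from 7.85 to 9.82 FPKM in P.T.ATBx (median 8.81) and from 7.40 to 9.32 in Control (median 8.27). With 7 of 10 P.T.ATBx libraries above the Control median, it had the largest positive value of the 10, a log2 fold change of 0.07 (95% interval −0.03 to 0.18, adjusted p = 0.576, limma). Irak1 (chromosome X, 74013914 to 74023921) ran from 31.7 to 34.3 FPKM in P.T.ATBx (median 33.3) and from 31.1 to 36.1 in Control (median 34.2). Here 9 of 10 libraries in P.T.ATBx were under the median of Control, yet the log2 fold change was only −0.03 (95% interval −0.09 to 0.03, adjusted p = 0.707, limma). The coefficient of variation of Irak1 was 2.20% in P.T.ATBx and 4.94% in Control.

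Traf6 (chromosome 2, 101678420 to 101701668), the ligase gene downstream of the kinases, ran from 9.37 to 10.99 FPKM in P.T.ATBx (median 10.3) and from 8.84 to 11.2 in Control (median 10.4). All P.T.ATBx libraries lay inside the Control range, and the log2 fold change was 0.014 (95% interval −0.07 to 0.10, adjusted p = 0.923, limma). For Irak1 the interval corresponds to 0.939-fold to 1.02-fold and for Traf6 to 0.951-fold to 1.07-fold, the narrowest of the set.

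Unc93b1 (chromosome 19, 3935158 to 3949340), the chaperone gene of endosomal TLRs, ran from 52.7 to 96.7 FPKM in P.T.ATBx (median 79.0) and from 59.6 to 85.6 in Control (median 77.6). P.T.ATBx held both the lowest library, P.T.ATBx 2, and the 2 highest. The means were 77.3 ± 12.9 FPKM in P.T.ATBx and 75.7 ± 8.64 in Control (SD, n = 10 each), with a log2 fold change of 0.019 (95% interval −0.17 to 0.21, adjusted p = 0.954, limma).

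**Figure D3:**
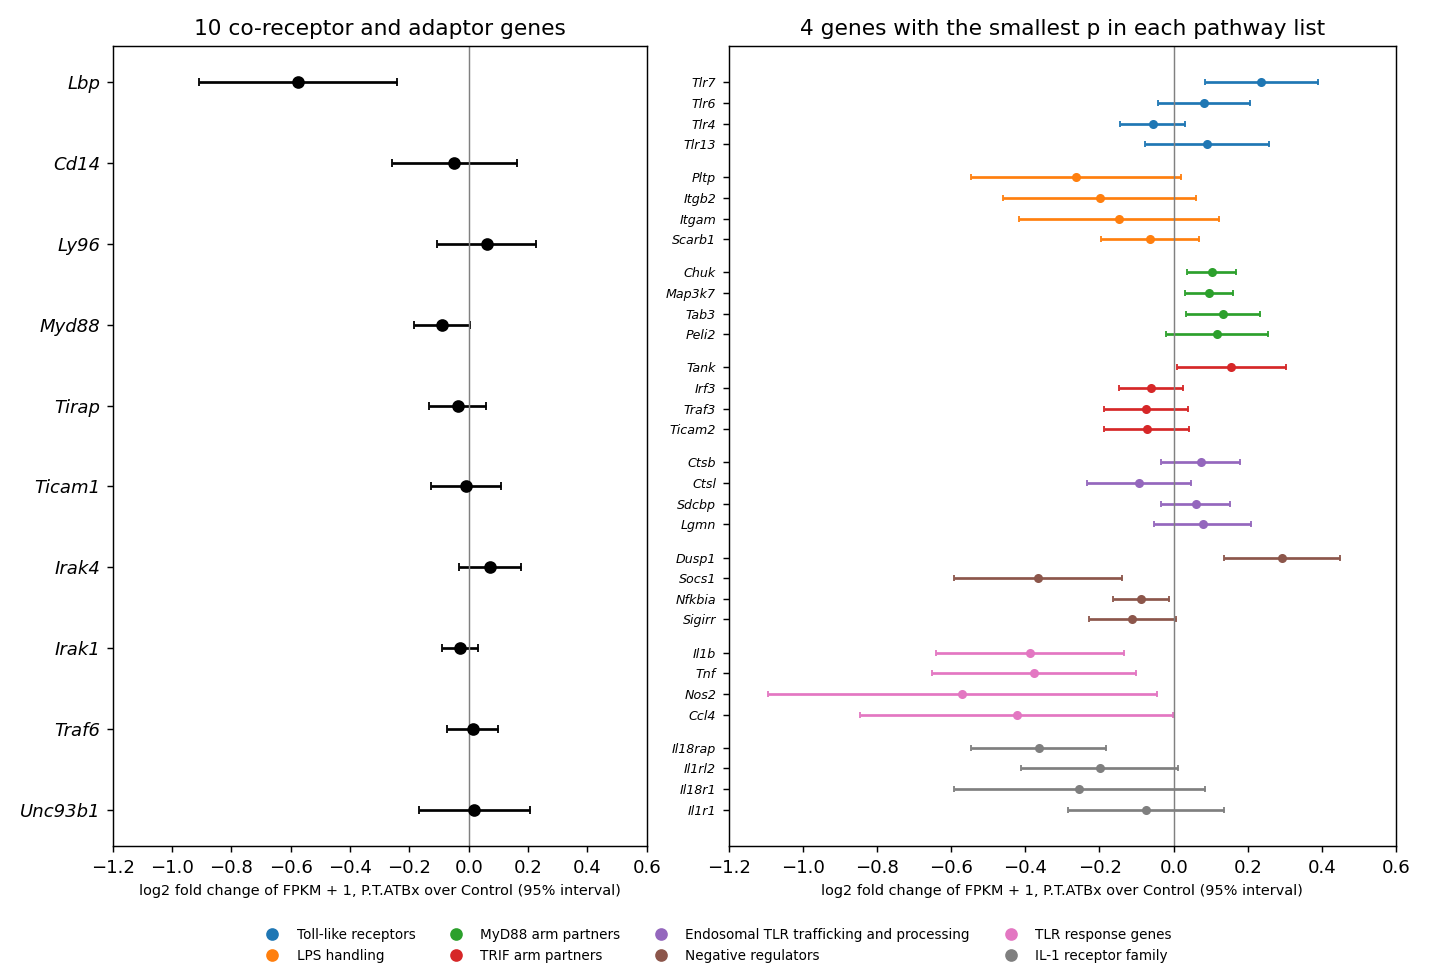
Log2 fold change of FPKM + 1, P.T.ATBx over Control, with 95% intervals from limma. Left, the 10 genes. Right, the 4 genes with the smallest p in each of 8 pathway lists, coloured by list. Of the 10 genes, Lbp alone has an interval that leaves out 0, and neither Lbp nor any pathway gene passed the adjusted threshold.

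Unc93b1, Irak4 and Myd88 varied with the level of the leukocyte gene Ptprc. With Ptprc, Unc93b1 had r = 0.937 and rho = 0.887 (permutation within groups, adjusted p = 0.0004 and 0.0008 over 120 relations), 0.956 within P.T.ATBx and 0.910 within Control. Irak4 had r = 0.821 and rho = 0.832 with Ptprc (adjusted p = 0.0004 and 0.0008), and Myd88 r = 0.759 and rho = 0.651 (adjusted p = 0.0039 and 0.0411). Without the 2 libraries farthest from the median of Ptprc these were 0.897 for Unc93b1, 0.791 for Irak4 and 0.622 for Myd88. Ptprc itself had a log2 fold change of −0.04 (adjusted p = 0.931, limma).

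Unc93b1 also passed with the macrophage score (r = 0.845, rho = 0.741) and the T cell score (r = 0.853, rho = 0.898), Myd88 with the macrophage score (r = 0.791, rho = 0.701) and the T cell score (r = 0.749, rho = 0.704), and Irak4 with the T cell score (r = 0.721, rho = 0.663). Adjusted p in these 5 ran from 0.0004 to 0.0411, and r without the 2 libraries farthest from the median score from 0.546 (Myd88 and macrophages) to 0.856 (Unc93b1 and T cells). Together with Lbp and the fibroblast score, these made 9 of 120 relations that passed by both r and rho. Between groups, 0 of 9 macrophage markers and 0 of 4 T cell markers passed, with 5 of the 9 macrophage markers positive and 4 of the 4 T cell markers negative. At an unadjusted p under 0.05 there were 3 of 9 and 1 of 4 (limma), where 13.6% of all rows were. The macrophage markers among these differed in direction: Cd68 had a log2 fold change of 0.17, Mrc1 −0.32 and Fcgr1 −0.18 (adjusted p = 0.129, 0.277 and 0.361, limma). The T cell marker was Cd3d (−0.38, adjusted p = 0.245, limma). The summed FPKM of the markers ran from 1733 to 2675 in P.T.ATBx and 1812 to 3003 in Control for macrophages, and from 13.8 to 31.0 in P.T.ATBx and 15.7 to 43.3 in Control for T cells.

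Of the 45 pairs among the 10 genes, 1 passed by both measures: Irak4 and Unc93b1 (r = 0.776, rho = 0.762, permutation within groups, adjusted p = 0.00135 and 0.0113), with r = 0.757 without the 2 libraries farthest from the median of Unc93b1. Myd88 and Unc93b1 passed by r only (r = 0.769, rho = 0.642, adjusted p = 0.0045 and 0.0851). Ly96, Tirap, Irak1, Traf6 and Ticam1 had no relation that passed by either measure. For Ticam1 the largest r with a marker score was 0.398, with the T cell score (rho = 0.310, permutation within groups, adjusted p = 0.4125 and 0.622). With the Rpph1 and Rmrp share, r was −0.562 for Tirap, −0.541 for Irak1 and −0.565 for Traf6 (rho −0.508, −0.311 and −0.441, permutation within groups, adjusted p from 0.160 to 0.622). Without Control 1 these were −0.375 for Tirap, −0.339 for Irak1 and −0.399 for Traf6, and for Irak1 r was 0.073 within P.T.ATBx and −0.748 within Control. With the adipocyte score, r was −0.584 for Tirap, −0.507 for Irak1 and −0.508 for Traf6 (rho −0.576, −0.429 and −0.347, adjusted p from 0.153 to 0.622). For Traf6 that r was 0.284 within P.T.ATBx and −0.785 within Control, and −0.340 without Control 3. The part of library composition in the values of Tirap, Irak1 and Traf6 was not tested.

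**Figure D4:**
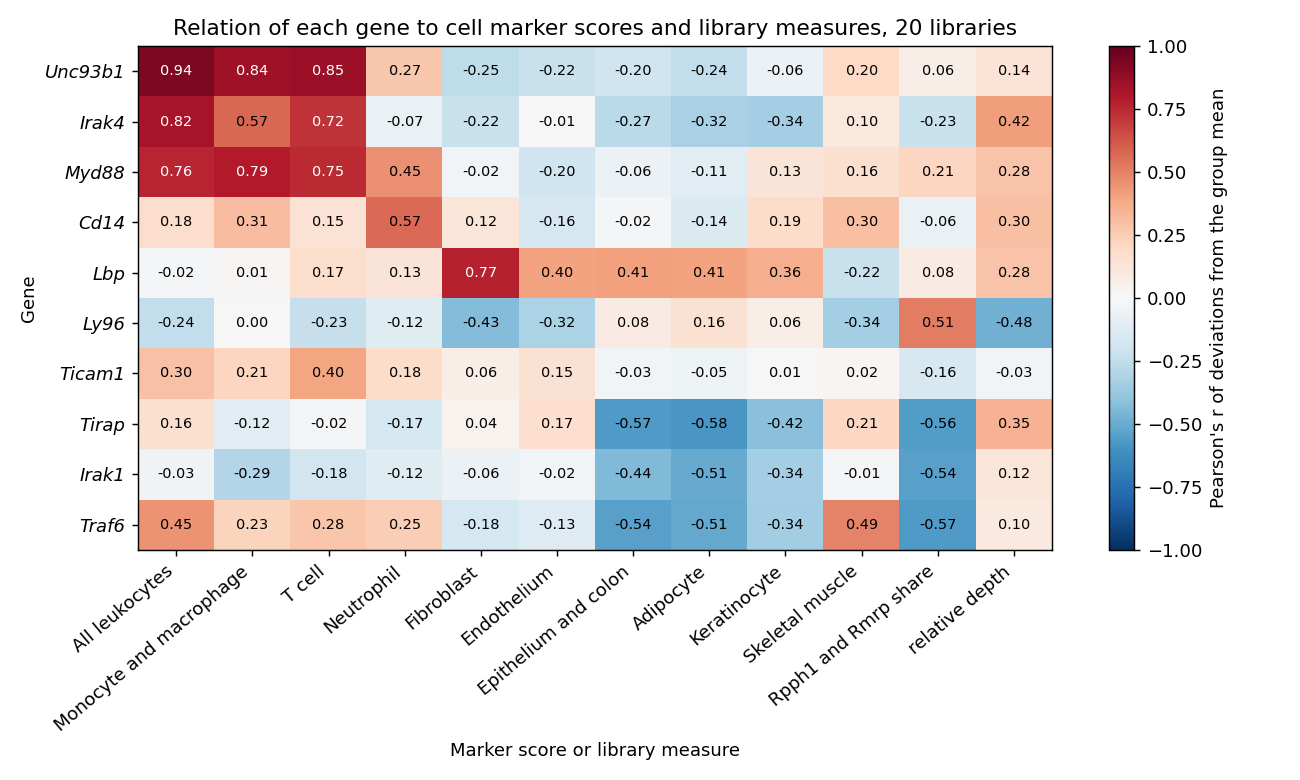
Pearson's r, over 20 libraries and after the group means are taken off, between each of the 10 genes and 10 cell marker scores, the Rpph1 and Rmrp share and the relative depth. Red is positive and blue negative. Unc93b1, Irak4 and Myd88 have r of 0.76 to 0.94 with Ptprc (all leukocytes), Lbp has 0.77 with fibroblast markers, and Tirap, Irak1 and Traf6 have −0.57 to −0.54 with the Rpph1 and Rmrp share, and −0.40 to −0.34 without Control 1.

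The genes most like Unc93b1 had very high values: Il2rb, the beta chain of the IL-2 receptor (r = 0.968), Il18bp, which encodes a soluble IL-18 inhibitor (r = 0.966), and the classical MHC class I gene H2-K1 (r = 0.963), whose reads can be shared with close copies. Among those most like Myd88 were Lfng, a glycosyltransferase gene of the Notch pathway (r = 0.907), and the phosphatase gene Ptpro (r = 0.883). Most like Irak4 were Nfe2l2, the NRF2 gene (r = 0.857), the T cell activation GTPase gene Tagap (r = 0.856) and Syt11 (r = 0.839). For Traf6 they were the Mediator kinase module gene Med13 (r = 0.891), the kinase gene Smg1 of nonsense-mediated decay (r = 0.880) and Acsl4 (r = 0.861). For Irak1 they were the Notch ligand gene Jag1 (r = 0.849), Tbx18 (r = 0.822) and Ranbp10 (r = 0.822), and for Tirap Tfdp2 (r = 0.870), Ythdc1 (r = 0.827) and Mbnl2 (r = 0.820). For Ticam1 they were Cbfa2t2 (r = 0.772), Ttyh3 (r = 0.735) and Tcp11l2 (r = 0.716).

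The sequence before the start of Myd88 is shown beside that of Irak4, since both genes varied with Ptprc. Each run is the 250 bases before the start, 5′ to 3′ on the gene's strand, from RefSeq (GRCm38.p6), chr9:119340019-119340268 on the minus strand for Myd88 and chr15:94543410-94543659 on the plus strand for Irak4. Capitals mark matches to 5 patterns searched on both strands: the interferon-stimulated response element or ISRE (GAAA, 2 free bases, GAAA), STAT (TTC, 3 free bases, GAA), NF-kB (GGG, 5 free bases, CC), C/EBP (TT, 2 free bases, GNAA) and AP-1 (TGA, 1 free base, TCA).
Myd88: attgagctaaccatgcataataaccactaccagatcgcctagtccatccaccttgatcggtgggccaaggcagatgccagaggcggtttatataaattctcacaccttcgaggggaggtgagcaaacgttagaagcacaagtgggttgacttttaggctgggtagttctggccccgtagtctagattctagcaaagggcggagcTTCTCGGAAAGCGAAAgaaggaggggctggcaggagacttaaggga
Irak4: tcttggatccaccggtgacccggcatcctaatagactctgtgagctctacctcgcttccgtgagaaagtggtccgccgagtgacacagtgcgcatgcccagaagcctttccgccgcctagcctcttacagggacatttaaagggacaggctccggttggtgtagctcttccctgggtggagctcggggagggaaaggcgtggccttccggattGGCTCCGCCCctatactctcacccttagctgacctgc

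The capitals in Myd88 hold a STAT match beginning at −46 and an ISRE match beginning at −40 from the start, which overlap each other. Irak4 has 1 NF-kB match, beginning at −37, and no ISRE or STAT match in this window. The Irak4 entry counts from a start that lies inside the gene span given above, so the end of its run, with the NF-kB match, falls within that span. Among 32851 promoters of this length, 2.98% hold the ISRE pattern, 7.02% STAT, 45.8% NF-kB, 36.8% C/EBP and 6.75% AP-1. Of the 8 entries used, for 6 of the 10 genes, Myd88 alone held the ISRE or the STAT pattern. A match describes letters and is not evidence of binding.

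Around these 10 genes, 0 of 87 tested genes in 8 lists of the TLR pathway passed (limma). At an unadjusted p under 0.05 there were 13, or 14.9%, beside 13.6% of all rows, with 6 higher and 7 lower in P.T.ATBx. The receptors split evenly: of 11 tested Toll-like receptors 6 were positive and 5 negative (median log2 fold change 0.0033). Tlr7, the endosomal RNA sensor that needs UNC93B1, had 6.80 ± 1.02 FPKM in P.T.ATBx and 5.61 ± 0.695 in Control (log2 fold change 0.24, p = 0.00407, adjusted p = 0.131, limma). Tlr4, the LPS receptor, had 16.6 ± 0.935 FPKM in P.T.ATBx and 17.3 ± 1.29 in Control (log2 fold change −0.06, adjusted p = 0.614, limma). Tlr6 and Tlr13 had 0.08 and 0.09.

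In the LPS handling list 7 of 8 were negative (median −0.12), led by the phospholipid transfer protein gene Pltp (−0.26, adjusted p = 0.406, limma), the integrin genes Itgb2 (−0.20) and Itgam (−0.15), and Scarb1 (−0.06). Partners in the MYD88 arm had 10 of 16 positive values (median 0.04). The kinase gene Chuk (IKK alpha) had 32.3 ± 1.16 FPKM in P.T.ATBx and 30.04 ± 1.53 in Control, with all 10 P.T.ATBx libraries above the Control median (log2 fold change 0.10, p = 0.00377, adjusted p = 0.126, limma). Map3k7, the TAK1 gene, had 0.10 (adjusted p = 0.155, limma), its partner Tab3 0.13 (adjusted p = 0.199, limma) and Peli2 0.12. Partners in the TRIF arm had 6 of 9 negative (median −0.06), with Tank at 0.16 (adjusted p = 0.336, limma), Irf3 at −0.06, Traf3 at −0.07 and Ticam2 at −0.07. In endosomal trafficking and processing 6 of 10 were positive (median 0.02), and Ctsb (0.07), Ctsl (−0.09), Sdcbp (0.06) and Lgmn (0.08) had the smallest p, with an adjusted p of at least 0.579 (limma).

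Among 11 tested negative regulators 8 were negative (median −0.05). Dusp1, the phosphatase gene that ends MAP kinase signalling, had 12.2 ± 1.82 FPKM in P.T.ATBx and 9.75 ± 1.18 in Control, with 10 of 10 P.T.ATBx libraries above the Control median (log2 fold change 0.29, p = 0.000815, adjusted p = 0.0624, limma). Socs1 had −0.37 (adjusted p = 0.116, limma), Nfkbia −0.09 (adjusted p = 0.275, limma) and Sigirr −0.11. Dusp1 passed without P.T.ATBx 1 (adjusted p = 0.0429, range 0.0269 to 0.219 over 30 alternative fits, limma), and Socs1 without Control 2 (0.0484, range 0.0484 to 0.196). Of the receptors that share MYD88 in the IL-1 family, 5 of 5 were negative (median −0.20). Il18rap, a subunit of the IL-18 receptor, had 6.76 ± 0.776 FPKM in P.T.ATBx and 9.09 ± 1.79 in Control, with all 10 libraries of P.T.ATBx under the median of Control (log2 fold change −0.36, p = 0.000445, adjusted p = 0.0509, limma). Il18rap passed in 8 of 30 alternative fits, among them those without Control 1, Control 2, P.T.ATBx 5 or P.T.ATBx 6, with an adjusted p of 0.0063 to 0.155 over the 30 (limma). Il1rl2 (−0.20), Il18r1 (−0.25) and Il1r1 (−0.07) followed.

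TLR response genes were mostly negative, 15 of 17, where 6203 of all 12788 rows were. Their median log2 fold change was −0.22 beside 0.0027 over all rows. Genes of a list can vary together across the same libraries, so these counts of signs carry no test. The cytokine genes Il1b (15.8 ± 2.43 FPKM in P.T.ATBx and 21.4 ± 5.59 in Control, log2 fold change −0.39, adjusted p = 0.137, limma) and Tnf (5.76 ± 0.980 in P.T.ATBx and 7.97 ± 2.20 in Control, −0.38, adjusted p = 0.193, limma) had the smallest p, and Tnf passed without Control 2 (adjusted p = 0.0294, range 0.0294 to 0.337 over 30 alternative fits, limma). Nos2 (−0.57, adjusted p = 0.322, limma) and the chemokine gene Ccl4 (−0.42, adjusted p = 0.366, limma) came next. These genes also answer to other signals, and several are made by neutrophils and T cells. Negative values were found in 3 of 4 tested neutrophil markers and 4 of 4 T cell markers. They were also found in 5 of 5 fibroblast, 5 of 5 epithelial, 4 of 4 adipocyte, 3 of 3 keratinocyte and 3 of 4 endothelial markers. Macrophage markers were mixed, with 5 of 9 positive and 4 negative (median log2 fold change 0.027), and 3 of 3 skeletal muscle markers were positive. The neutrophil genes S100a8 and S100a9 had higher medians in P.T.ATBx (4.32 and 5.20 FPKM) than in Control (4.21 and 4.16). Their highest values, 28.2 and 35.3 FPKM, were in Control. Retnlg had medians of 2.86 FPKM in P.T.ATBx and 7.00 in Control. All 10 P.T.ATBx libraries were under its Control median (log2 fold change −1.04, p = 0.00105, adjusted p = 0.0722, limma). Csf3r had 0.11 (adjusted p = 0.789, limma). The neutrophil score was 1.69 in Control 10, 1.28 in Control 9, 0.974 in Control 1 and 0.696 in Control 5. The other Control libraries ran from −0.83 to −0.13, and the highest P.T.ATBx library was at 0.297. The summed FPKM of 6 neutrophil markers ran from 9.05 to 25.6 in P.T.ATBx and from 9.96 to 85.7 in Control. The part of these cells in the response genes was not tested.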

How the data were processed

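The authors deposited 1 table of FPKM with 20 library columns, matched to samples by the names in the labels. The build was mm10, per the submitters' processing notes, and no aligner, quantification tool or annotation is given in the sources used here. Per the labels' protocols, libraries were made with a stranded total RNA kit. Rows averaging 0.5 FPKM or more were tested on log2(FPKM + 1), which understates the change of low genes, with group as the only term in limma 3.58.1 (R 4.3.3), robust and trended moderation, two-sided, and Benjamini-Hochberg adjustment over all rows at 0.05. The script was tested on simulated data. Relations used deviations from group means and 100000 permutations within groups, adjusted within a family of 120 (genes and measures) or 45 (gene pairs). A marker score is the mean of centred log2(FPKM + 1) over tested markers. Named genes were all 10, the 4 with the smallest p in each list, and the 3 most alike to each gene, predicted genes left out; 1 of these is not reported here. Members, lists and motifs were chosen with earlier results of these data known. Coordinates came from RefSeq GRCm38.p6. Alternatives were another pseudocount, filter, scaling, weighting and moderation, a replicate block, and each library left out. Ly6g and Trbc2 were not matched to a row, and Tlr11, Bpi, Sarm1, Cxcr2, Mmp8, Vil1 and Cdx2 fell under the filter.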

Additional observations from a re-analysis of the deposited data

Results flagged for a closer look

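Single libraries stood apart from the rest of their group in 2 of the 10 genes, by a gap to the nearest library above Dixon's 95% critical share of the group's range on the log2 scale. Chance flags about 1 in 20 groups, and 20 groups were looked at. Cd14 was at 25.5 FPKM in P.T.ATBx 8 (gap 0.514 of the range). Ticam1 was at 7.22 FPKM in Control 4 (gap 0.559 of the range).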

How the results depend on the processing

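Over 30 alternative fits, Cd14, Ly96, Lbp, Myd88, Tirap, Irak1 and Irak4 kept their sign. Lbp passed only without Control 7 and ran from −0.66 to −0.48 on leaving out 1 library, so members called lower ran from 0 to 1. Near 0, the sign of 3 genes turned, with no call: Ticam1 was 0.0044 with quantile normalization and ran from −0.033 to 0.025 on leaving out 1 library, Traf6 was −0.0069 with arrayWeights, −0.012 without the 4 libraries with the largest sums (chosen after seeing the data) and −0.0063 to 0.028 on leaving out 1, and Unc93b1 ran from −0.018 to 0.078. Over all rows, 59 were higher and 49 lower. There were 20 and 29 on the TPM scale, 154 and 152 with arrayWeights, and 31 and 36 without those 4 libraries. Leaving out 1 library gave 38 to 104 higher and 31 to 89 lower. In the pathway lists, arrayWeights called 2 higher (Dusp1, Tlr7) and 1 lower, Il18rap, which was the 1 called lower also with quantile normalization, median-of-ratios scaling and the replicate block. Leaving out 1 library called 0 to 1 higher (Dusp1 without P.T.ATBx 1) and 0 to 3 lower (Il18rap, Socs1 and Tnf without Control 2). Without any 1 of Control 1, P.T.ATBx 5 or P.T.ATBx 6, Il18rap was the 1 called. The cause was not tested. The labels do not say that replicate numbers pair the libraries, and the main fit did not use the numbers as pairs. A correlation of deviations above 0.1 was found in 5 of 10 pairs, which does not decide the question. The correlation in the 10 pairs had a median of 0.080 and ran from −0.315 to 0.393. That 7 of 20 libraries correlated best with their own number is at most a hint of pairing from the data, not the design. Libraries that are each other's best match count as 2 of these, and no test was run. With the replicate block, 124 rows were called in place of 108, 0 of the 10 genes, and Il18rap had an adjusted p of 0.0191 (limma) in place of 0.0509. Lbp then had p = 0.0111 and adjusted p = 0.171 (limma), in place of 0.00175 and 0.0876. Myd88 had p = 0.0263 and adjusted p = 0.248 (limma), in place of 0.0593 and 0.392.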
